A study of Mus musculus with 8 samples.

Results

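Hdac1 and the genes around it occupy a stretch of mouse chromosome 4, here chr4:122000000-131000000 (mm9, 9 Mb), in which many probes differed between dorsal root ganglia (DRGs) of Fabry disease (FD) mice and wildtype mice. The members are the array probes that the files place in this stretch, apart from probes named only by a genomic interval and those of Col and Nduf genes, which leaves 228 of the 388 probes there and of the 55681 probes of the array. They carry 165 gene or transcript names. The stretch was picked out because of the FD to wildtype comparison, so the fold changes and calls of its members are a description of that comparison and no test of it.

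The study asked which genes differ in the DRGs of a mouse model of FD, an X-linked lysosomal storage disorder caused by lack of the enzyme α-galactosidase A. Lumbar DRGs L3 to L5 came from male α-Gal A(-/0) mice on a C57BL/6 background, called FD, and from male wildtype C57BL/6J mice, both aged 20 to 24 weeks. Each group had 8 mice, and the DRGs of 2 mice were pooled per sample, so that 4 FD and 4 wildtype samples were hybridized to the 8 arrays of 1 slide. The disruption of Gla is in every cell of the FD mice rather than in 1 cell type. The mice of this array experiment came from separate inbred colonies, so genotype and colony cannot be told apart in any value below. For RT-qPCR the paper used other mice, with the FD mice backcrossed to C57BL/6J. Among them it reported Hdac1 as significantly lower in FD and S100pbp as not regulated.

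HDAC1 is a deacetylase that removes acetyl groups from lysines of histones and other proteins. It works in large corepressor complexes such as NuRD, Sin3 and CoREST, and RBBP4, whose gene also lies in the stretch, is the histone-binding subunit of several of them. The other neighbours have unrelated roles, among them the lysosomal thioesterase Ppt1, the orexin receptor Hcrtr1 and the T cell kinase Lck. The tissue contains sensory neuron somata, satellite glia, Schwann cells, vessels, macrophages and connective tissue, and in such bulk tissue fewer cells of a type and less RNA per cell cannot be told apart.

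Between 56.5% and 60.8% of the spots of an array were well above background. All 12 sensory neuron markers, 4 of 4 satellite glia, 6 of 6 Schwann cell, 3 of 3 fibroblast, 4 of 4 endothelial, 5 of 5 macrophage and 3 of 3 red blood cell markers looked at were well above background on all arrays, against 2 of 4 T cell, 2 of 4 spinal cord and 1 of 3 skeletal muscle markers. The log2 of the summed signals of the Schwann cell markers was 16.88 to 17.01 in FD and 17.06 to 17.18 in wildtype DRGs. That of the fibroblast markers was 16.34 to 16.57 and 16.60 to 16.87, and that of the spinal cord markers 9.34 to 9.50 and 8.95 to 9.24. The brightest marker weighs most in such a sum. For the fibroblast markers this is Dcn, with a log2 fold change (FD minus wildtype) of -0.29 (SE 0.075). Lum stood at -0.03 (SE 0.175) and Pdgfra at -0.09 (SE 0.077). Of the spinal cord markers Aqp4 stood at 0.39 (SE 0.080) and Mog at 0.19 (SE 0.077). The 6 Schwann cell markers ranged from -0.215 to -0.0085. Olig2 and Slc6a5, defining markers of the spinal cord, were not above background throughout, and Aqp4 was the 1 marker called, higher in FD DRGs. The sums of the Schwann cell, fibroblast and spinal cord markers did not overlap between the groups, and those of the other types did. Single markers of these other types also differed. The red blood cell markers ranged from -0.53 to -0.38 and the macrophage markers from -0.46 to 0.51, without a call. The part of any of these differences in the results was not tested. The disrupted gene, Gla, had 1 probe, with a mean log2 signal of 16.59 in FD and 16.62 in wildtype DRGs (adjusted p = 0.879 in limma), and the files do not say whether that probe lies in the disrupted part, so it checks no label. In a principal component analysis of all tested probes the first component (32.9% of the variance) separated the groups, while wildtype 1 and wildtype 2 lay far apart on the second.

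Probe sequences are shown for the genes whose probes carry the pattern of the stretch. Each probe is 60 bases long and reads as the transcript does, and 30 bases of it are given, named by the base of the transcript at which the probe starts. The 3 probes of Hdac1, all lower in FD DRGs, lie within 402 bases of the genome at chr4:129193374-129193775 on the minus strand (mm9).
Hdac1, from base 1543: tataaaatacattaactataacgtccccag
Hdac1, from base 1732: tgttaaactttttaggaggggtctgggtct
Hdac1, from base 1885: gtggaggttgatagcctagcttcctttttg

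The probes of Iqcc are shown because 1 was higher and 1 lower in FD DRGs. Capitals mark AATAAA, the letters of the common polyadenylation signal, searched on the transcript strand alone. They stand in 14.0% of the member probes and in 10.1% of all probes of the array, and among the 3 Iqcc probes in the lower one.
Iqcc, from base 125: cgagccgagtatgaggcaattgtacaagag
Iqcc, from base 2081: gtaccccctcctcatagaatattaAATAAA
Iqcc, from base 2324: tttggacagatttgtgatcaaggaaaacca

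The 3 probes of Akirin1 are shown because those from bases 407 and 770 were both higher in FD DRGs and that from base 1827 was not.
Akirin1, from base 407: tttagaagttgttctcagtcaaagcgaagc
Akirin1, from base 770: ttgcaactggtttgatatcacatttcagct
Akirin1, from base 1827: ttactgtgacttgttcaggaccacatttta

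The probes of Hcrtr1 overlap by 52 of their 60 bases, shifted by 8, so they are nearly 1 measurement. Capitals mark the bases that both printed stretches share.
Hcrtr1, from base 2119: atgtggccATTCGTTCAGCATGGAGGCCAG
Hcrtr1, from base 2127: ATTCGTTCAGCATGGAGGCCAGcagcccgg

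Of the 228 members, 175 probes of 122 names were well above background on all 8 arrays and were tested. Of the other 53, 35 were above background on no array and 18 on some, 12 of these on more FD arrays and 5 on more wildtype arrays. Of all probes, 58.1% to 60.8% were above background on FD arrays and 56.5% to 60.5% on wildtype arrays. The array-wide split was not counted, so 12 and 5 are no result about the members. Probes with an adjusted p under 0.05 in limma, adjusted over all tested probes of the array, are named called here. Calls by the methods' t-test (Welch) use the same adjusted threshold. The paper's own lists rest instead on a filter on the unadjusted p and the fold change. Counts at an unadjusted p under 0.05 are given further on without the share of all tested probes, which was not counted. They are no result about the genes they cover. In the stretch 37 of the 175 tested probes were called, which is 21.1%, where 3.07% of all 29432 tested probes and 3.27% of those on chromosome 4 outside the stretch were. They included 21 lower in FD DRGs (background 1.11%) and 16 higher (background 1.96%). The called probes belong to 27 names, where 3.84% of all gene names had a called probe. Of the names, 15 had a lower probe, 13 a higher one and 1, Iqcc, both.

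The values of the groups did not overlap in 53 of the 175 tested probes, or 30.3% (background 13.4%), including all 37 called. Most of the called differences were modest. The fold change was at least 2 in 4 called probes (background 0.394%), which belong to Hdac1, S100pbp and Iqcc, and under 1.5 in 19. The median fold change was 1.40 for the lower and 1.52 for the higher ones. Over all tested members the median log2 fold change was -0.058, against 0.019 for all tested probes, and its median size was 0.13 against 0.10. The median SD within a group was 0.085 in FD and 0.12 in wildtype DRGs, close to the 0.094 and 0.14 of all tested probes. Among the window's tested probes that are no members, 9 of 67 were called, all higher in FD DRGs (background 1.96%). The 9 are all probes named by a genomic interval, and the share called among such probes of the whole array was not counted.

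**Figure D1:**
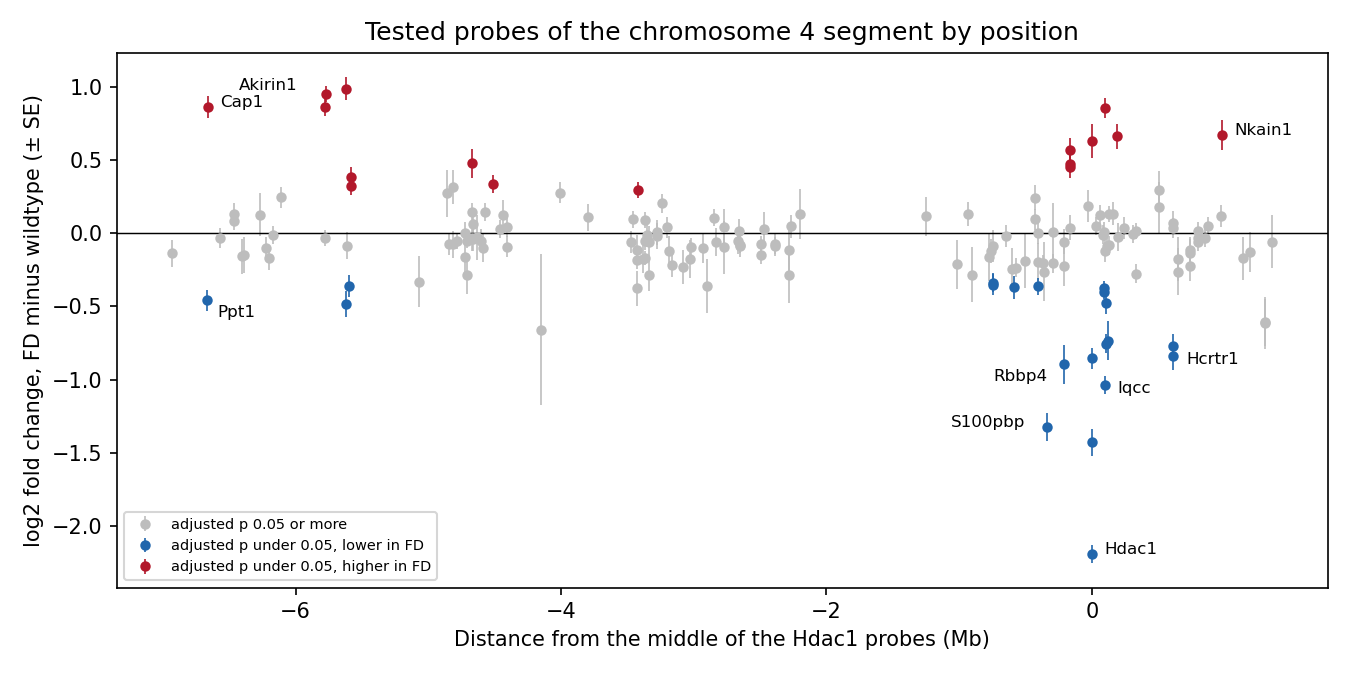
Log2 fold change (FD minus wildtype, bars are the SE of limma) of 172 of the 175 tested probes against the distance from Hdac1 in Mb; blue and red points are 20 lower and 16 higher called probes. Called probes stand near the left end and around Hdac1, with a gap of 2.67 Mb between them that holds none.

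Called probes were unevenly spread along the stretch. From 122 to 124 Mb 9 of 22 tested probes were called, 3 lower and 6 higher. From 124 to 126 Mb 3 of 46 were called, all higher, and from 126 to 128 Mb 0 of 24 in limma, 0 by the methods' t-test and 2 at an unadjusted p under 0.05 in limma. From 128 to 130 Mb 24 of 74 were called, 18 lower and 6 higher, and beyond 130 Mb 1 of 9, which was higher. The longest run without a call, 2.67 Mb between Lsm10 and A3galt2, held 42 tested probes of 30 names with log2 fold changes from -0.36 to 0.21. The lowest was that of 5730409E04Rik (SE 0.19), where wildtype 1 read 10.69 and the other wildtype samples 9.75 to 9.99. Without wildtype 1 the lowest was Tlr12 at -0.40, and with the slide row as a block 5730409E04Rik at -0.56. On the plus strand 8 lower and 10 higher probes were called among 94 tested, and on the minus strand 13 lower and 6 higher among 81. The median GC content was 45.0% in called and 43.3% in uncalled probes. No called member shared a run of 25 bases with a probe outside the stretch.

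Hdac1 had the lowest log2 fold change of any tested member probe. Its probe from base 1732 read 9.08, 9.03, 9.19 and 9.23 in FD samples 1 to 4 and 11.31, 11.35, 11.30 and 11.35 in wildtype samples 1 to 4 (log2 signal). The 4 FD samples lay close together and well below the 4 wildtype samples. The log2 fold change was -2.20 (SE 0.061), a 4.58-fold lower signal. From base 1543 the signal was 7.45, 7.44, 7.14 and 7.11 in FD and 8.77, 8.70, 8.72 and 8.66 in wildtype samples, with a log2 fold change of -1.43 (SE 0.092). Farthest toward the 3′ end of the transcript, the probe from base 1885 read 12.59, 12.53, 12.69 and 12.61 in FD and 13.30, 13.55, 13.50 and 13.48 in wildtype samples, with a log2 fold change of -0.85 (SE 0.070). All 3 probes separated the groups without overlap, and the size of the difference varied among them from 1.81-fold to 4.58-fold. Within slide row 1, which held FD 1 to 3 and wildtype 1, the differences were -2.21, -1.42 and -0.70 in this order of probes, and within slide row 2 -2.11, -1.58 and -0.90.

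Rbbp4, which encodes the histone-binding partner of HDAC1, gave differing probes. Its probe from base 4068 read 6.48, 6.62, 6.01 and 6.25 in FD and 7.28, 7.41, 7.18 and 7.08 in wildtype samples, a log2 fold change of -0.90 (SE 0.13). Its probe from base 1757 read between 12.93 and 13.13 in FD and between 12.97 and 13.30 in wildtype samples, a log2 fold change of -0.06 (SE 0.086). The groups were separate in the first probe and overlapped in the second. The lower probe was not called by the methods' t-test, and its log2 fold change was -0.56 with normexp background correction.

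Zbtb8os, which encodes archease, a cofactor of the tRNA ligase complex, starts next to Rbbp4 on the opposite strand. Both its probes were higher in FD DRGs, by 0.48 (SE 0.068) and 0.57 (SE 0.085) on the log2 scale. They share 15 bases. The probe with the smaller difference read 12.40, 12.35, 12.37 and 12.42 in FD and 11.86, 12.08, 11.81 and 11.89 in wildtype samples. A neighbouring probe of the transcript ENSMUST00000141235 was also higher, by 0.45 (SE 0.076), and lost its call without FD 2, FD 3, FD 4 or wildtype 4 (0.41 to 0.49 over the 8 repeats that each left out 1 sample). Rbbp4 and Zbtb8os thus lay side by side with called probes of opposite sign, though the brighter Rbbp4 probe stood at -0.06 without a call.

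The DNA between both starts is shown because these genes share it. RefSeq (GRCm38.p6) places 161 bases between them at chr4:129335371-129335531, printed as the plus strand, on which Zbtb8os is read. Capitals mark GGGCGG, which Sp family factors can bind, and CCAAT, which NF-Y can bind, searched on both strands.
Rbbp4 to Zbtb8os: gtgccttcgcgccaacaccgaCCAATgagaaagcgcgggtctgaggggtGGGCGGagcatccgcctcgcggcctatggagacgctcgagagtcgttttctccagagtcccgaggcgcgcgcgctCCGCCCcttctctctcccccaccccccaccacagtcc
GGGCGG matched 2 times, once on each strand, and CCAAT 1 time. Of the 32851 promoters in the table, 29.3% held GGGCGG and 25.7% held CCAAT in a window of the same length before the start. The GC content was 68.3%, against a median of 54.0% for those windows.

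Marcksl1, which encodes a MARCKS-like protein that binds actin and membranes, is the nearest measured gene on 1 side of Hdac1. Its probe ends 368 bases before the first Hdac1 probe and lies on the opposite strand. It read 9.39, 9.64, 9.54 and 9.51 in FD and 9.13, 8.59, 8.99 and 8.86 in wildtype samples, a log2 fold change of 0.63 (SE 0.12). The groups did not overlap, but wildtype 1 lay nearest to FD 1, and the difference was 0.39 in slide row 1, which holds both. Among the 8 repeats that each left out 1 sample Marcksl1 was called without wildtype 1 or wildtype 2 alone (0.53 to 0.71 over all 8). On the other side the nearest gene is Lck, a kinase of the T cell receptor pathway, which read 9.16 to 9.33 in FD and 9.13 to 9.29 in wildtype samples. Its log2 fold change was 0.05 (SE 0.062), and it was not called.

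**Figure D2:**
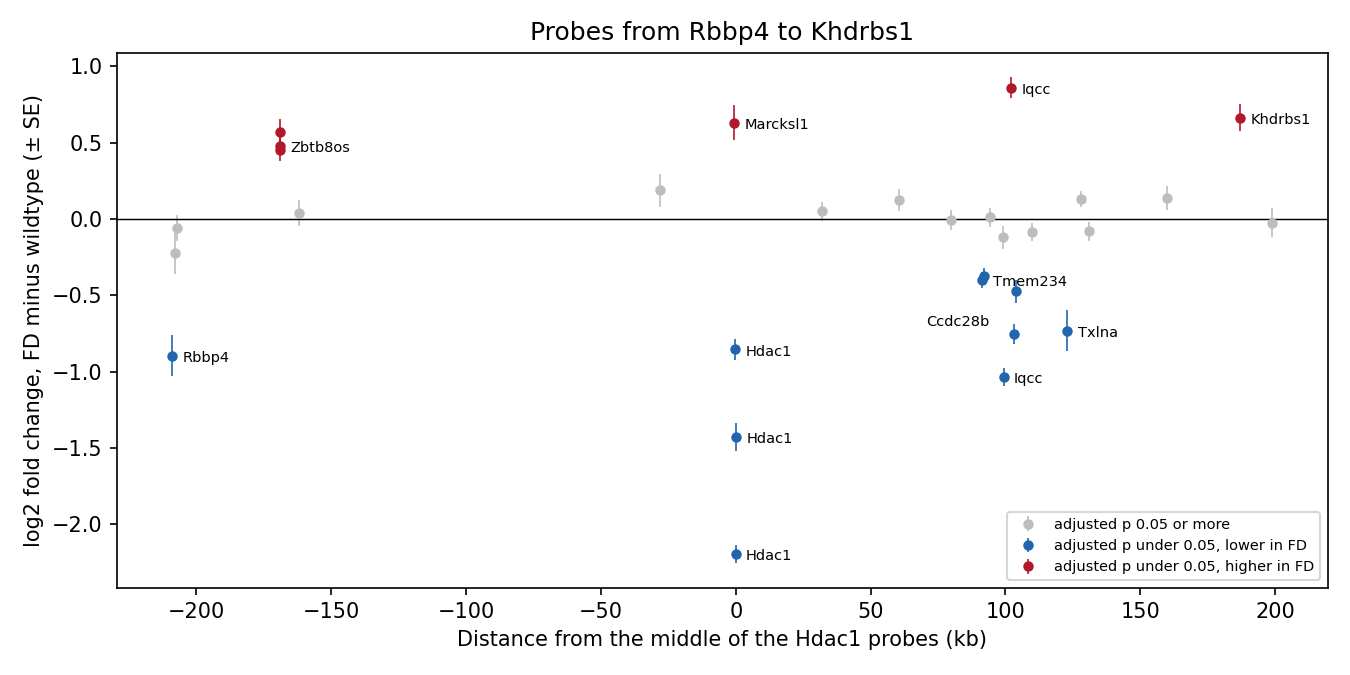
Log2 fold change (FD minus wildtype, bars are the SE of limma) of the tested probes from Rbbp4 to Khdrbs1 against the distance from Hdac1 in kb, in the colours of the plot by position. Lower probes, down to -2.20 for Hdac1, and higher ones, up to 0.86 for Iqcc, alternate with uncalled probes such as that of Lck.

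Iqcc, which encodes a protein with a calmodulin-binding IQ motif, was the single gene called in both directions. Its probe from base 125 read 8.56, 8.57, 8.64 and 8.58 in FD and 7.68, 7.70, 7.63 and 7.90 in wildtype samples, a log2 fold change of 0.86 (SE 0.069). Its probe from base 2081 read 9.05, 9.13, 9.08 and 9.05 in FD and 9.997, 10.10, 10.20 and 10.16 in wildtype samples, a log2 fold change of -1.04 (SE 0.061). The remaining probe, from base 2324, which the files assign to another transcript record, read 8.46, 8.61, 8.60 and 8.57 in FD and 8.49, 8.73, 8.73 and 8.77 in wildtype samples. Its log2 fold change was -0.12 (SE 0.075), without a call. Toward the 5′ end of the transcript the signal was thus higher, and at the second probe lower, in all 4 FD samples.

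Of the genes around Iqcc, Ccdc28b, Tmem234 and Txlna had lower probes, while Dcdc2b, between Tmem234 and Iqcc, stood at 0.0095 (SE 0.065) and Kpna6, next after Txlna, at 0.13 (SE 0.054) and -0.08 (SE 0.064), without a call. Ccdc28b, which encodes a protein of cilium assembly, had log2 fold changes of -0.76 (SE 0.065) and -0.48 (SE 0.073) for its 2 probes. The probes of Tmem234, a membrane protein gene, differed by -0.40 (SE 0.051) and -0.37 (SE 0.049), and the 4 FD samples of the first read 12.96 to 13.01 against 13.31 to 13.42 in wildtype samples. Txlna, which encodes a syntaxin-binding protein of vesicle traffic, was lower at its probe from base 758, by 0.73 (SE 0.13), and read -0.09 (SE 0.059) on the log2 scale at that from base 4786. The lower probe read 7.70, 7.34, 7.22 and 7.21 in FD and 7.80, 8.22, 8.17 and 8.20 in wildtype samples. FD 1 and wildtype 1 were nearly equal there, and the difference was -0.38 in slide row 1, which holds both, and -0.99 in slide row 2. Among the 8 repeats it was called without FD 1 or wildtype 1 alone (-0.84 to -0.68 over all 8). Khdrbs1, which encodes the RNA-binding protein Sam68, was higher at 1 probe, by 0.66 (SE 0.086), while the other, from base 2586, stood at -0.03 (SE 0.096).

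S100pbp, which encodes a nuclear protein that binds the calcium sensor S100P, had 3 probes. That assigned to a separate cDNA record, from base 2164, read 6.78, 6.60, 6.67 and 6.42 in FD and 8.02, 8.05, 7.94 and 7.74 in wildtype samples, a log2 fold change of -1.32 (SE 0.096). At the probe from base 1438 of another record the signal was 4.91 to 5.64 in FD and 5.33 to 6.11 in wildtype samples, a log2 fold change of -0.26 (SE 0.20) with overlapping groups. The third, from base 1133, was above background on 2 FD and 4 wildtype arrays and was not tested. It read 3.37 to 4.90 in FD and 5.18 to 6.98 in wildtype samples.

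**Figure D3:**
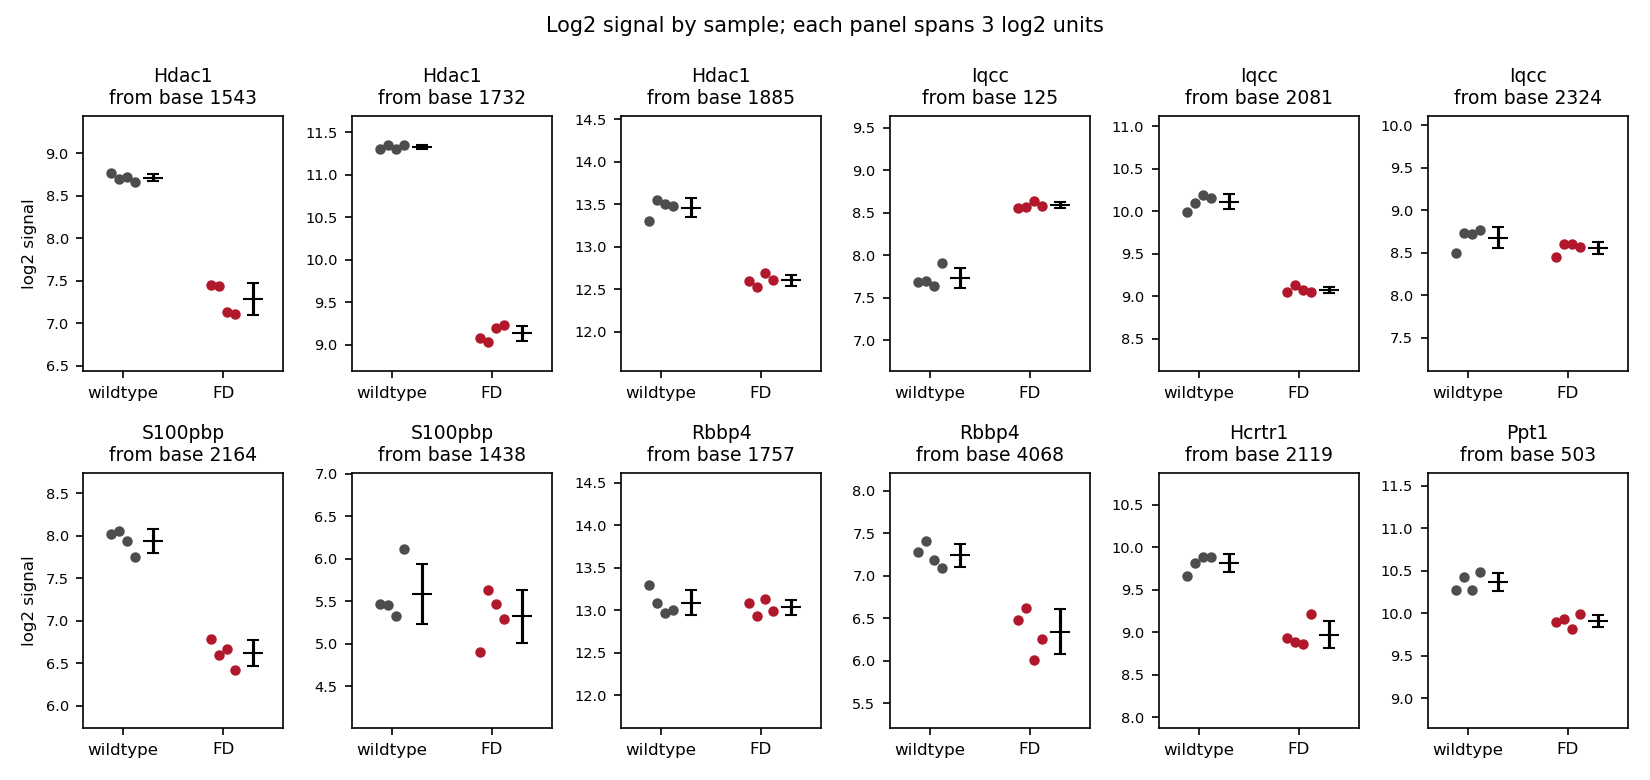
Log2 signal of each sample (points, wildtype in grey and FD in red, 4 each) for probes of Hdac1, Iqcc, S100pbp, Rbbp4, Hcrtr1 and Ppt1, with mean ± SD in black; panels have their own axis, each 3 log2 units high. Groups are apart in all 3 Hdac1 probes, and 1 probe each of Iqcc, S100pbp and Rbbp4 shows overlap.

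Hcrtr1, the gene of orexin receptor 1, a G protein-coupled receptor for the neuropeptide orexin A, was lower in FD DRGs at both overlapping probes. The probe from base 2119 read 8.93, 8.88, 8.86 and 9.21 in FD and 9.66, 9.82, 9.88 and 9.88 in wildtype samples, a log2 fold change of -0.84 (SE 0.093). That from base 2127 gave -0.77 (SE 0.079). FD 4 was the highest FD sample in both but stayed below every wildtype sample. Nkain1, whose protein binds the sodium pump, was higher at its probe from base 2001, by 0.67 (SE 0.10), and stood at 0.12 (SE 0.076) at that from base 1262.

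From 128 Mb up to S100pbp, called probes were all lower and their differences smaller. A3galt2 encodes isoglobotriaosylceramide synthase, which adds a terminal α-galactose to a glycosphingolipid. Its 2 probes had log2 fold changes of -0.34 (SE 0.064) and -0.35 (SE 0.072), and the first read 9.58 to 9.71 in FD and 9.87 to 10.08 in wildtype samples. Azin2, an antizyme inhibitor of polyamine metabolism, was lower at 1 probe, by 0.37 (SE 0.078), with -0.23 (SE 0.066) at the other. Tmem54, a membrane protein gene, was lower by 0.36 (SE 0.058). In the 8 repeats that left out 1 sample each, the A3galt2 probes were called without wildtype 1 and without wildtype 3 or FD 3, and Azin2 without wildtype 1 or 2, and otherwise neither was. Their log2 fold changes ran from -0.41 to -0.30 over these repeats. Tmem54 lost its call without FD 1 alone.

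Near the start of the stretch Ppt1 encodes the lysosomal enzyme that removes palmitate from proteins. Its probe at chr4:122525717-122525776 read 9.89, 9.94, 9.82 and 9.99 in FD and 10.28, 10.43, 10.27 and 10.49 in wildtype samples. The groups were separate, with a log2 fold change of -0.46 (SE 0.071). Cap1, a regulator of actin turnover, lies next to it and was higher in FD DRGs. It read 13.92, 13.95, 13.99 and 13.82 in FD and 13.21, 12.91, 13.01 and 13.08 in wildtype samples, a log2 fold change of 0.86 (SE 0.075).

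Akirin1, which encodes a nuclear adaptor of transcription, was higher at 2 of its 3 probes. The probe from base 407 read 11.72, 11.71, 11.79 and 11.69 in FD and 10.88, 10.74, 10.76 and 10.73 in wildtype samples, a log2 fold change of 0.95 (SE 0.057). That from base 770 gave 0.87 (SE 0.062), and the probe from base 1827 gave -0.03 (SE 0.053), with 13.73 to 13.80 in FD and 13.73 to 13.84 in wildtype samples. For this last probe the files give a position of fewer bases than its length. The RIKEN transcript 4930535I16Rik was higher by 0.99 (SE 0.077), with 8.52 to 8.66 in FD and 7.42 to 7.75 in wildtype samples.

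Differences smaller than those of Cap1, the called Akirin1 probes and 4930535I16Rik stood at the remaining called genes of this end. Rragc, a Rag GTPase that signals amino acid supply at the lysosome, was higher at both probes, by 0.38 (SE 0.070) and 0.32 (SE 0.059). Mtf1, the metal-responsive transcription factor, was higher at its probe from base 2678, by 0.48 (SE 0.10), with -0.03 (SE 0.086) at that from base 6951 and no signal above background at the remaining probe. Within slide rows 1 and 2 the difference at the higher Mtf1 probe was 0.74 and 0.29. Rspo1, an enhancer of Wnt signalling, was higher by 0.34 (SE 0.062), and Lsm10, a component of the U7 particle that processes histone transcripts, by 0.30 (SE 0.057). Mycbp, a MYC-binding protein gene, was lower at 1 of 2 probes, by 0.36 (SE 0.074), and Gm10572 was lower by 0.48 (SE 0.091), or by 0.29 with normexp background correction. In the 8 repeats that left out 1 sample each, Rspo1 and Lsm10 were called without wildtype 1 or 2, Mycbp without wildtype 1, Mtf1 without wildtype 3 and Gm10572 without FD 4 or wildtype 1, and otherwise were not. The Rragc probes were called in 3 of the 8 each, which include the repeats without wildtype 1 and without wildtype 2. All of these kept their sign in the 8 repeats, which was bound to follow because their groups did not overlap.

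Of the 45 names with several tested probes, 18 had a call. All tested probes were called in the same direction in 7 of them, and only some were called in 11. The signs differed in 4, namely Akirin1, Iqcc, Khdrbs1 and Mtf1. Differences between the probes of 1 gene were themselves not tested, and no array-wide share of such genes was counted beside these numbers. Of 7 pairs of overlapping member probes, 2 were both called, those of Zbtb8os and Hcrtr1.

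**Figure D4:**
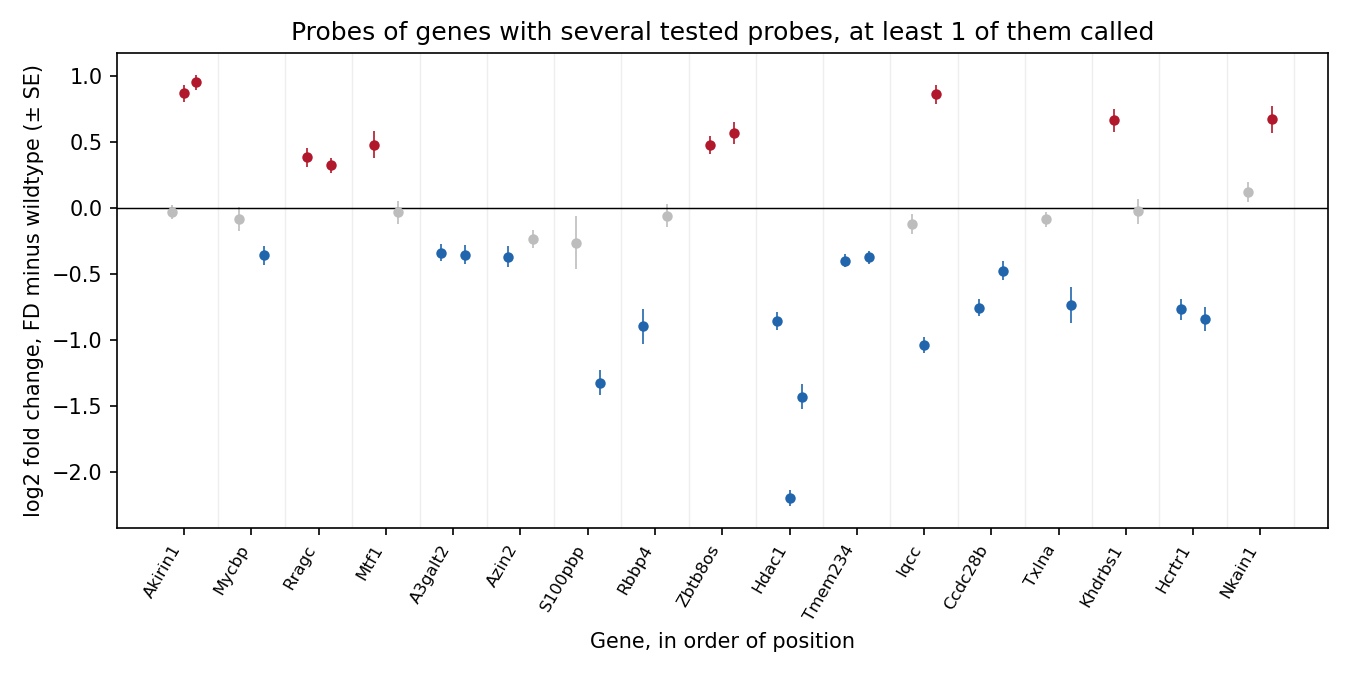
Log2 fold change (FD minus wildtype, bars are the SE of limma) of every tested probe of 17 of the 18 genes with several tested probes and at least 1 call, in order of position; blue, red and grey are lower, higher and uncalled probes. Iqcc spans -1.04 to 0.86, whereas the 3 probes of Hdac1 are all lower.

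Grouped by role, the calls were spread over several functions. Of all tested probes 1.11% were called lower and 1.96% higher, and of the tested members 21.1% were called. The roles hold members of the stretch alone, so their counts here and in the next paragraph are no result about a function. Among the nuclear regulators, 5 probes were lower and 5 higher of 35 tested probes of 19 genes, with a median log2 fold change of -0.063. The lower ones belong to Hdac1, Rbbp4 and Mycbp and the higher ones to Akirin1, Zbtb8os and Mtf1. Of these, archease acts on tRNA rather than on transcription. Among 22 probes of 18 genes of RNA processing and translation 0 were lower and 2 higher, those of Lsm10 and Khdrbs1, with 1 lower at an unadjusted p under 0.05. The Argonaute genes Ago1, Ago3 and Ago4, whose proteins carry small RNAs, had uncalled log2 fold changes from -0.23 to -0.10 (from -0.30 to -0.06 over the 8 repeats).

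Of 19 probes of 12 neuronal signalling and adhesion genes, 2 were lower, both of Hcrtr1, and 2 higher, those of Marcksl1 and Nkain1. Grik3, a kainate receptor subunit, stood at 0.11 (SE 0.093) without a call. Of 9 probes of 6 immune and lysosomal genes, 1 was lower, that of Ppt1, and 2 were higher, both of Rragc. Laptm5, a lysosomal protein of blood cells, had log2 fold changes of -0.61 at both probes (SE 0.16 and 0.18) without a call. Of 27 probes of 17 genes of traffic, protein turnover and metabolism 3 were lower, those of Txlna and Azin2 among them, and 1 higher, of Cap1. The single tested gap junction gene, Gja4, was not called (0.13, SE 0.17), and the 62 probes of the 49 names in no group held 10 lower and 4 higher ones.

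**Figure D5:**
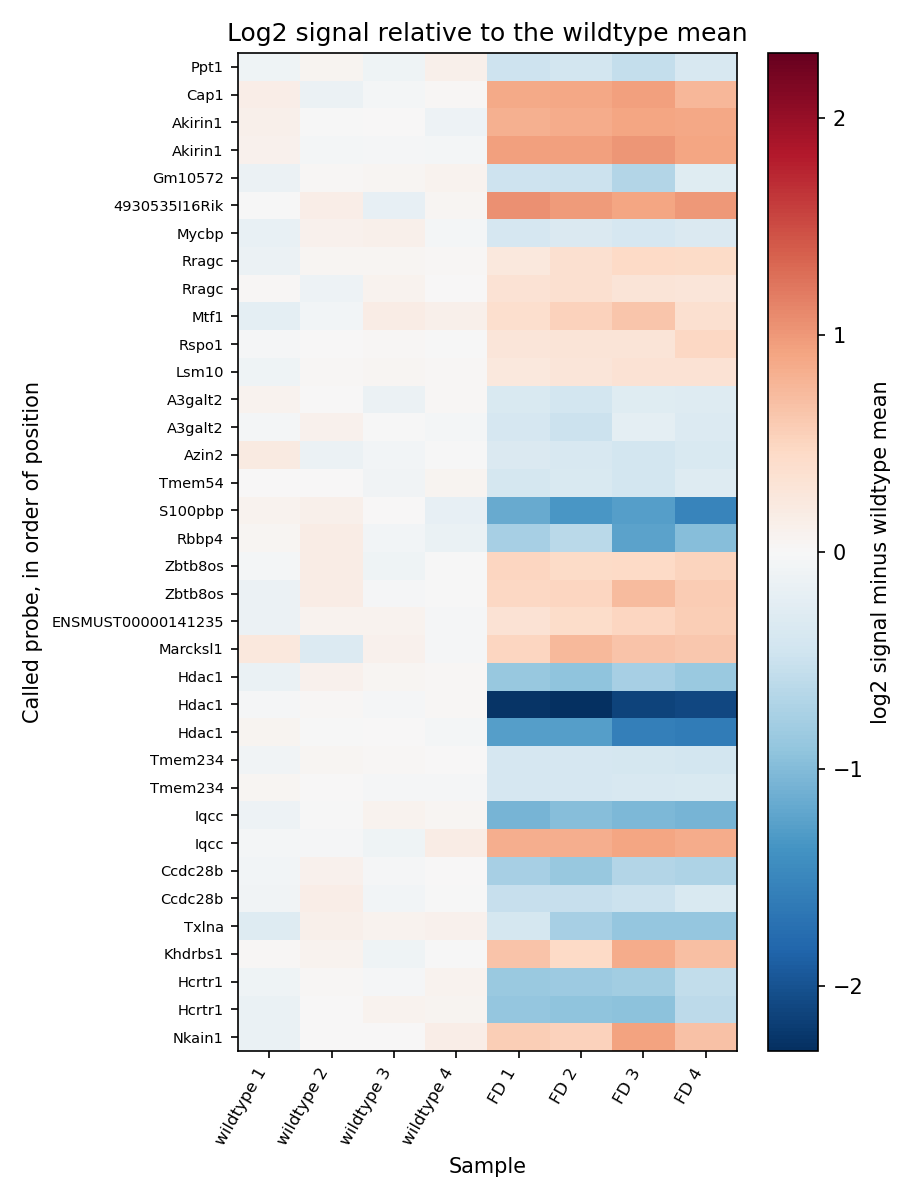
Log2 signal of 36 of the 37 called probes in each of the 8 samples, relative to the mean of the 4 wildtype samples, in order of position; blue is lower and red higher. In each row all 4 FD samples lie on the same side of all 4 wildtype samples.

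All 37 called probes kept their sign within both slide rows, a comparison chosen after the data had been seen. This was bound to follow, because the groups did not overlap in any of the 37, so the kept sign tests nothing. The rows are unbalanced, with FD 1 to 3 and wildtype 1 in row 1 and FD 4 and wildtype 2 to 4 in row 2. With the slide row as a block 30 of the 37 were called and 7 were not, namely both A3galt2 probes, 1 of the Rragc probes and those of Mycbp, Mtf1, Marcksl1 and Txlna (adjusted p from 0.0552 to 0.0837 in limma). Of the 37, 13 were called under each of the 17 alternative settings, and 22 under each of the 8 that left out 1 sample. The 13 include the 3 probes of Hdac1, the called S100pbp probe, both called Iqcc probes and both of Hcrtr1, besides probes of Cap1, Akirin1, 4930535I16Rik and Ccdc28b. Without wildtype 1 the counts were 22 lower and 16 higher, and without wildtype 2, 15 and 15.

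Csmd2os, transcribed opposite to the Csmd2 gene, was well above background on 4 FD arrays and on 0 wildtype arrays. Its mean log2 signal was 5.61 in FD DRGs, and 4.29 as measured in wildtype DRGs, at least 1.80-fold higher against a bound of 4.76 set by the dimmest probes above background. FD 4 alone read 7.75, and the others 4.70 to 5.17, and without FD 4 the bound came to 1.10-fold. The tested probes on either side of each end were as follows. The first member inside its start, NAP023752-001, stood at -0.14 (SE 0.092) and the next one, of Ppt1, was called, while the nearest tested probes outside stood at 0.13 (SE 0.080) and, for Rlf, 0.09 (SE 0.073). The last inside its end, A_55_P2169129, stood at -0.06 (SE 0.18) and the one before it, of Laptm5, at -0.61 (SE 0.18). The nearest outside, of Gm831, stood at 0.07 (SE 0.11) and the next, of Ptpru, at -0.47 (SE 0.11), all 4 without a call.

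The partners of HDAC1 whose genes lie elsewhere were looked at beside it, by the brightest tested probe of each. Of the 46 listed subunits of class I deacetylase complexes and of other RBBP4 complexes, 45 were measured. Ezh2, the methyltransferase of Polycomb complex PRC2, was the 1 called, where 3.12% of all brightest probes were. It read 7.71, 7.63, 7.52 and 7.64 in FD and 8.08, 8.38, 8.06 and 8.48 in wildtype samples, and fell by 0.62 on the log2 scale (SE 0.10, adjusted p = 0.0167 in limma). It was called under 10 of the 17 alternatives and not under 7, namely the methods' t-test, the replicate block, the slide row as a block, no filter on background, and without FD 2, FD 3 or FD 4 (adjusted p from 0.0112 to 0.142 over all 17). At an unadjusted p under 0.05, 1 partner was lower and 5 were higher. The share of all tested probes at that threshold was not counted, so these counts describe no trait of the partners. The median log2 fold change of the 45 was -0.032.

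Hdac2, the closest relative of Hdac1 and its partner in the same complexes, read 7.67, 7.61, 7.63 and 7.55 in FD and 7.29, 7.40, 7.49 and 7.43 in wildtype samples. The groups did not overlap, but the log2 fold change of 0.21 (SE 0.061) missed the threshold (adjusted p = 0.11 in limma). Rbbp7, the relative of Rbbp4, stood at 0.06 (SE 0.095, adjusted p = 0.775 in limma). Subunits of NuRD ranged from -0.56 to 0.06, of Sin3 from -0.23 to 0.25 and of CoREST from -0.12 to 0.12, and 0 of each were called in limma, with 0, 1 and 1 at an unadjusted p under 0.05. The lowest of NuRD was Gatad2b (SE 0.33), where wildtype 1 read 9.04 and the other wildtype samples 7.51 to 7.59. Without wildtype 1 the NuRD subunits ranged from -0.18 to 0.13, and without FD 3 those of Sin3 from -0.10 to 0.26.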

How the data were processed

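RNA of 8 DRG samples (4 FD, 4 wildtype) was measured in 1 color. The deposited intensity values are spot signals that Agilent Feature Extraction 10.7.3.1 corrected for background, per the file headers, with probe positions on mm9. The deposited table of log2 values was quantile normalized by the authors and served as an alternative. Here, log2 processed signals without outlier spots (93 to 221 per array; 0 saturated) were averaged per probe and quantile normalized. Probes well above background on all 8 arrays (29432) were compared with limma 3.58.1 in R 4.3.3 and adjusted by Benjamini-Hochberg; the procedure was tested on simulated data. Errors are standard errors. The number of arrays limits the precision. Samples are separate pools of mice. A replicate number was not found to pair samples (correlations of same-numbered deviations -0.24 to 0.062).

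Of the members, 182 took their symbol through RefSeq, 7 of them a changed one; 5 found no match and 41 had no RefSeq record. The members and lists were chosen with earlier results of these data known. Named were Hdac1, Rbbp4, S100pbp, Hcrtr1, Iqcc and Ppt1, every gene with a called probe, the neighbours of Hdac1, genes with probes of opposite sign, genes above background in 1 group alone, the first member inside each end, and Gla, Hdac2, Rbbp7 and called partners. Of the called genes, 1 is counted but not reported here. Laptm5, Grik3, Gja4, Dcdc2b, Kpna6, 5730409E04Rik, Tlr12, Gatad2b, Chaf1b, Rlf, Ptpru and the Argonaute genes were added after their values were seen. The marker genes Dcn, Lum, Pdgfra and Mog were also named after their values were seen. Alternatives were normexp background correction, scaling to the 75th percentile, the deposited table, weaker filters, the methods' t-test, array weights, a replicate or slide row block and leaving out each sample.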

Additional observations from a re-analysis of the deposited data

Results flagged for a closer look

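Of 100 groups of 4 samples looked at, 8 held a sample far from the other 3, by Dixon's ratio of the gap to the group's range, where chance gives about 1 in 20. Wildtype 1 was the low sample in 4 of them. It read 10.52 for Rragc against 10.68 to 10.701 in the others, 10.84 for Lsm10 against 10.96 to 10.98, 8.49 for the uncalled Iqcc probe against 8.73 to 8.77, and 7.80 for the called Txlna probe against 8.17 to 8.22. FD 4 was the high sample in 3. It read 12.45 for Rspo1 against 12.24 to 12.27, 6.07 for A_55_P2169129 against 5.29 to 5.37, and 7.75 for Csmd2os against 4.70 to 5.17. Wildtype 3 read 4.83 for Csmd2os against 4.10 to 4.12.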

How the results depend on the processing

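In place of 21 lower probes, 16 higher probes, 27 genes and 1 HDAC1 partner called, the methods' t-test at the same adjusted threshold gave 11, 5, 10 and 0. These are not counts by the paper's own filter. The replicate block gave 10, 6, 11 and 0, though same-numbered samples were not found to be paired. The other alternatives kept the counts within 1.5 times, except for 0 partners without a filter on background; with the slide row as a block the partner called was Chaf1b (0.34) in place of Ezh2. Leaving out 1 sample gave 14 to 22 lower probes, 9 to 16 higher probes, 15 to 28 genes and 0 to 1 partners. The higher probes came to 9 without FD 2, FD 3, FD 4 or wildtype 4, the genes to 15 to 17 without these or FD 1, and the partner was lost without FD 2, FD 3 or FD 4. Where 1 sample was left out, called probes had to keep their sign, as their groups did not overlap. A sign turned in uncalled probes alone. These were NAP023752-001 with normexp (0.0010), Akirin1 (0.023) and Khdrbs1 (0.017) with the 75th percentile, Akirin1 (0.0042), Khdrbs1 (0.032) and A_55_P2169129 (0.024) with the slide row block, and Rbbp4 with array weights (0.012). Without single samples it turned in Mtf1 (-0.12 to 0.011), Rbbp4 (-0.099 to 0.012), Khdrbs1 (-0.11 to 0.044) and A_55_P2169129 (-0.24 to 0.045). The causes were not tested.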
